A study of Mus musculus with 12 samples.

Results

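The genes described here are 6 secreted inhibitors of Wnt signalling (Wif1, Frzb, Sfrp1, Sfrp2, Sfrp4 and Sfrp5), 3 genes that Wnt signalling commonly induces (Axin2, Lef1 and Lgr5) and Cthrc1, a secreted glycoprotein that binds Wnt proteins and their receptors. These 10 genes were taken by symbol from 38087 gene models, and each stood on a single line of the deposited count table. The set was chosen by measured values. Wif1 was selected on its rise after nerve injury in dKO nerve, where it had the third largest rise among well expressed genes. Cthrc1 was selected as the only gene model called between genotypes in intact nerve. Values of these genes in the injury comparisons and in the intact genotype comparison are therefore given as descriptions, without tests.

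The series holds 12 RNA libraries of mouse sciatic nerve, 3 in each of 4 groups. Control mice were Dhh-Cre-:Tfebflox/flox;Tfe3+, and the mutant mice, called dKO below, were Dhh-Cre+:Tfebflox/flox;Tfe3KO. The floxed Tfeb allele was thus carried by all mice, Cre was under the control of Dhh, which cells of the Schwann lineage express, and Tfe3 was lost in all cells of the mutants and not only in Schwann cells. Injured nerve was the distal stump 5 days after the sciatic nerve was cut, and intact nerve was the uncut nerve of the other side, with its epineurium stripped off. Removal of the epineurium is stated for intact nerve only, and no age of the mice is stated in the labels. Because the intact nerves came from injured mice, both conditions of a genotype may share animals, but the labels name none.

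Wnt proteins are secreted lipid-modified ligands that bind Frizzled receptors together with the co-receptors Lrp5 and Lrp6, stabilise beta-catenin and so activate genes through the TCF/LEF factors. Wif1 and the secreted Frizzled-related proteins, of which Frzb is a member, bind Wnt proteins outside the cell. Axin2 and Lgr5 act back on the pathway, Axin2 as a scaffold for the destruction of beta-catenin and Lgr5 as a receptor for R-spondins, and Lef1 is itself one of the TCF/LEF factors. In injured nerve, Schwann cells lose their myelin programme and macrophages enter the stump.

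In GENCODE M21 (GRCm38, the same build as mm10), Wif1 spans chr10:121033960-121100650 on the plus strand, Frzb chr2:80411970-80447625 on the minus strand and Cthrc1 chr15:39076932-39087121 on the plus strand. The Sfrp genes lie apart from each other, Sfrp1 at chr8:23411502-23449632, Sfrp2 at chr3:83766321-83774316, Sfrp4 at chr13:19623104-19632994 and Sfrp5 at chr19:42197971-42202252. Axin2 lies at chr11:108920349-108950783, Lef1 at chr3:131110471-131224356 and Lgr5 at chr10:115450311-115587780. Sfrp2, Axin2, Lef1 and Lgr5 overlap a gene on the opposite strand. Whether reads were counted by strand is not given in the sources used here, so reads of these 4 genes and of their overlapping partners may not be separable.

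Promoter sequence was matched in RefSeq (GRCm38.p6) for 6 of the 10 genes. Windows of 250 bases before each RefSeq start were read, and those of Frzb, Wif1 and an internal start of Lef1 were the only ones that held a motif searched for. Bases inside GENCODE exons are not printed, which leaves out the Frzb window and the end of the Wif1 window. They were searched on both strands for the TCF/LEF core CTTTGA, the E-box CACGTG (a sequence that Tfeb and Tfe3 can bind) and the AP-1 sequence TGANTCA. The motifs searched do not overlap in these windows. Capitals mark CTTTGA read on the other strand (TCAAAG) and CACGTG, and each sequence is given 5′ to 3′ on the strand of its gene. Wif1 is chr10:121033754-121033959 on the plus strand, up to the base before its GENCODE start, and the Lef1 window, in an intron of the GENCODE gene, is chr3:131156044-131156293 on the plus strand.
Wif1: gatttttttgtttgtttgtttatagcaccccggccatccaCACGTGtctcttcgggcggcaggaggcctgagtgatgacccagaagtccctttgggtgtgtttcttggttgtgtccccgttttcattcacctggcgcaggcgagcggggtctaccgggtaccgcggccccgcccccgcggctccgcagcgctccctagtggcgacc
Lef1: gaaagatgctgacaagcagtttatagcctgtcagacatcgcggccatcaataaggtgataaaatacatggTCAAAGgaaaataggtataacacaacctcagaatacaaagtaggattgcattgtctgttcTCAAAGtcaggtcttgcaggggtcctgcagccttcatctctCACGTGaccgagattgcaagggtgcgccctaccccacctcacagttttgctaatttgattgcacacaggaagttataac
The Wif1 window holds 1 CACGTG, starting 166 bases before the GENCODE start and 210 bases before the RefSeq start. The Frzb window holds 1 CTTTGA, 95 bases before the RefSeq start but 134 bases inside the gene as GENCODE draws it. The Lef1 window holds 2 CTTTGA and 1 CACGTG. In all, 9 windows of the members were read, several of them starts of Lef1 that partly overlap. Of these 9, 2 held CTTTGA, 2 held CACGTG and 0 held TGANTCA. Of 32851 RefSeq promoter windows of the same length, 13.8% held CTTTGA, 6.02% held CACGTG and 6.75% held TGANTCA. A match is a description of letters and was not tested as a binding site.

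The libraries held 15430999 to 35845371 counts. Of the gene models, 22384 passed the low-count filter and were tested with edgeR. All 10 members passed. Levels are given as CPM, counts relative to the library size, with sizes scaled by TMM. A set of 4 libraries, all 3 of injured dKO nerve and replicate 4 of injured control nerve, had reads on 174 to 380.6 olfactory receptor genes at equal depth, against 54.8 to 76.8 in the other 8. This second library set is nearly the same split as genotype at 5 days. At 5 days a fit with a term for the set therefore compares dKO nerve with replicate 4 of injured control nerve alone. Replicate 1 of injured control nerve was the single library read as female, by Xist (10712 counts, against at most 23 in the others) and Y-linked counts. It still held 244 Y-linked counts, against 1907 to 3724 in the others, and their source was not tested. All 3 intact control libraries were read as male, so by this reading replicate 1 shares no animal with them. Summed counts of 4 Schwann cell markers (Sox10, S100b, Erbb3 and Cdh19) ran from 1549 to 2183 CPM in intact nerve, from 944 to 1325 CPM in injured control nerve and from 545 to 570.3 CPM in injured dKO nerve. In bulk RNA, fewer cells of a type and less RNA per cell cannot be told apart. Tfeb and Tfe3 were not called in either genotype comparison. Tfe3 was lower in all dKO libraries of intact nerve (43.3 to 47.4 CPM) than in the controls (56.7 to 62.1 CPM), and Tfeb was 17.0 to 19.5 CPM against 22.6 to 26.9 CPM. At 5 days Tfe3 was 49.5 to 53.8 CPM in dKO and 55.0 to 67.6 CPM in the controls. Tfeb overlapped there, at 14.2, 19.6 and 29.8 CPM in dKO and 24.0, 18.2 and 18.4 CPM in the controls, and the library labelled dKO replicate 4 held the highest Tfeb level of all 12. These counts cover whole gene models, and the position of the deleted exons is not given in the sources used here.

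Wif1, which binds Wnt ligands outside the cell, was almost silent in intact nerve and plainly present in the stump of both genotypes. Its level was 0.329, 0.744 and 0.105 CPM in intact control nerve and 0.191, 0.183 and 0.102 CPM in intact dKO nerve, which is 3 to 18 counts per library. In injured nerve it was 30.1, 21.1 and 21.0 CPM in the controls and 22.5, 26.6 and 28.9 CPM in dKO. All injured libraries were far above all intact ones, and the genotypes overlapped in both conditions. The log2 change with injury was 5.97 (SE 0.39) in control and 7.32 (SE 0.43) in dKO. These folds rest on few counts in intact nerve, and the gap between them lies in the intact levels, where the log2 difference between genotypes was -1.24 (SE 0.56), against 0.11 (SE 0.28) at 5 days. Replicate 2 of intact control nerve carried 18 of these counts, and without it the change in control was 6.72 and the intact difference was -0.42. In dKO nerve, Wif1 ranked after Asgr1 and Gzmb (8.96 and 7.86) and before Cdk1 (7.05). Ranks 10 and 11, on either side of a limit of 10 genes, were Ucn2 (6.58) and Ccnb1 (6.45). In control nerve Wif1 ranked 37 among the rises.

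Frzb was the member that differed between genotypes after injury. Its level was 272, 313 and 228 CPM in intact control nerve and 211, 215 and 264 CPM in intact dKO nerve. After injury it was 203, 206 and 169 CPM in the controls and 73.6, 50.04 and 80.5 CPM in dKO. The 2 intact groups overlapped, injured control nerve lay below both, and every injured dKO library lay below every other library. At 5 days Frzb was 2.84-fold lower in dKO than in control (log2 -1.50, SE 0.17, edgeR adjusted p = 7.6e-05), lower in 3 of 3 dKO libraries than in any control library. Its injury change was described as -0.49 (SE 0.17) in control and -1.76 (SE 0.17) in dKO, and the difference of the 2 changes was -1.27 (SE 0.24, edgeR adjusted p = 0.0101). Within the second library set, control replicate 4 held 169 CPM, above the highest dKO library (80.5 CPM), a log2 difference of -1.31. Without dKO replicate 4, the library with the highest Tfeb level, Frzb was still called at 5 days (-1.65, edgeR adjusted p = 0.000258). With a term for the set, the 5-day comparison rests on control replicate 4 alone and repeats the within-set difference (-1.31, still called). The difference of injury changes was then -1.07 and not called. Among these 4 Schwann cell markers at 5 days, 3 also fell in dKO nerve (S100b by 1.42, Cdh19 by 1.41 and Sox10 by 0.73 on the log2 scale), and Erbb3 (-0.29) was not called. The part of these cells in the Frzb result was not tested.

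**Figure D1:**
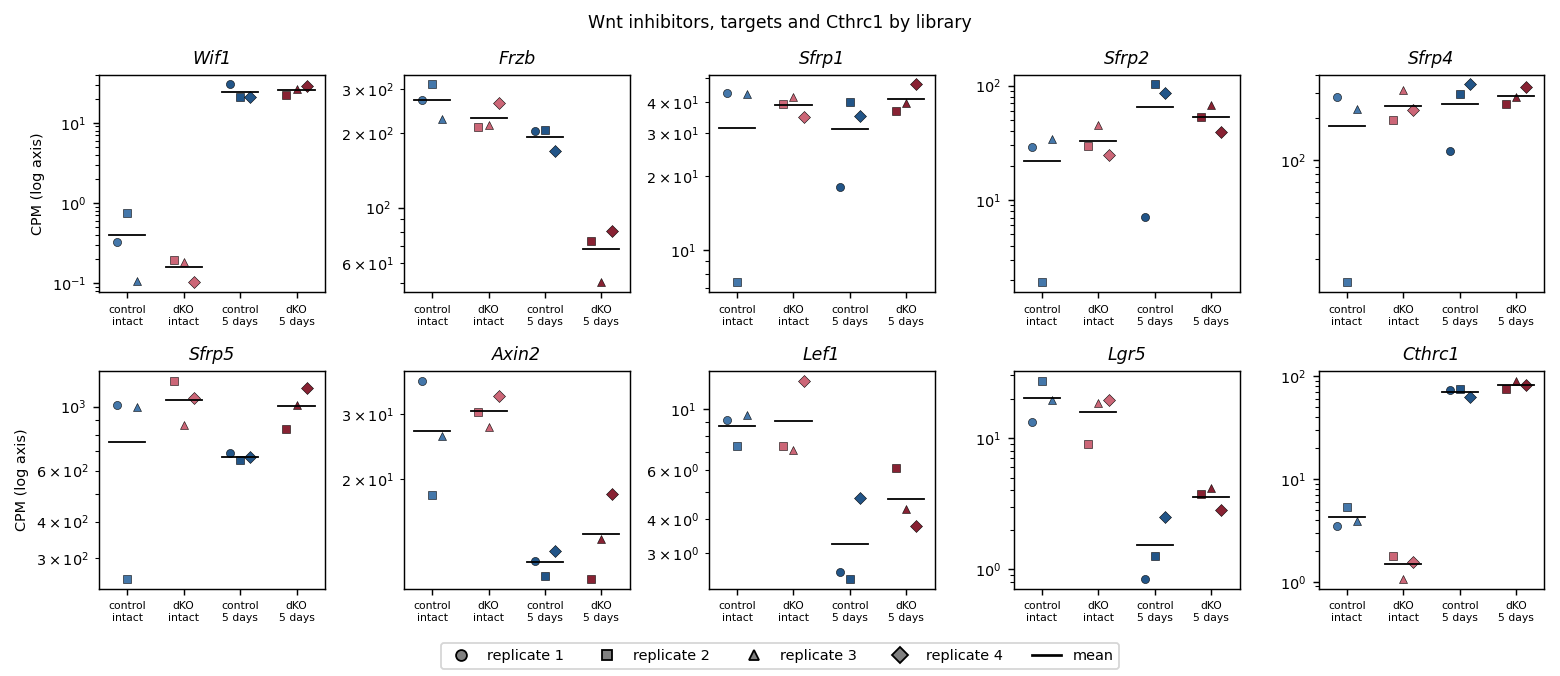
Level of each of the 10 genes in CPM (log axis, a separate scale per panel) in every library of the 4 groups, with 1 point per library, shaped by replicate number, and a bar at the group mean of 3. Wif1 and Cthrc1 are high in all 6 injured libraries, Frzb is lowest in the 3 injured dKO libraries, and replicate 2 of intact control nerve (square) lies far below the other intact libraries for Sfrp1, Sfrp2, Sfrp4 and Sfrp5.

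Sfrp1, Sfrp2, Sfrp4 and Sfrp5 were all far lower in 1 library of intact control nerve, replicate 2, than in the other 5 intact libraries. Sfrp1 was 43.5 and 43.1 CPM in replicates 1 and 3 of intact control nerve and 34.9 to 42.1 CPM in intact dKO nerve, but 7.36 CPM in control replicate 2. Sfrp2 was 29.2 and 34.1 CPM in those control replicates and 24.6 to 45.0 CPM in dKO, but 1.90 CPM in replicate 2. Replicate 2 was also low for Sfrp4 (13.8 CPM, against 191 to 311 CPM in the other 5 intact libraries) and for Sfrp5 (254 CPM, against 864 to 1227 CPM). The median of the other 5 was 5.72, 15.6, 16.8 and 4.00 times the level in replicate 2 for Sfrp1, Sfrp2, Sfrp4 and Sfrp5. Frzb went the other way and was highest in that library. Of the 10 members, 5 were below all other intact libraries there and 4 above, and of all gene models tested 28.3% (6344) were below and 6229 above. The same library was below the other 5 in all 5 fat markers (summed 120 CPM, against 447 to 1192 CPM), all 6 mural cell markers (695 CPM, against 982 to 1160 CPM), 5 of 6 endothelial markers and 4 of 5 perineurial markers (1671 CPM, against 2619 to 3031 CPM). It was below them in 5 of 10 fibroblast markers and in 0 of 4 Schwann cell markers, 3 of which were higher there than in any other intact library. The part of these cell types, or of the stripping of the sheath, in the low Sfrp levels was not tested.

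**Figure D2:**
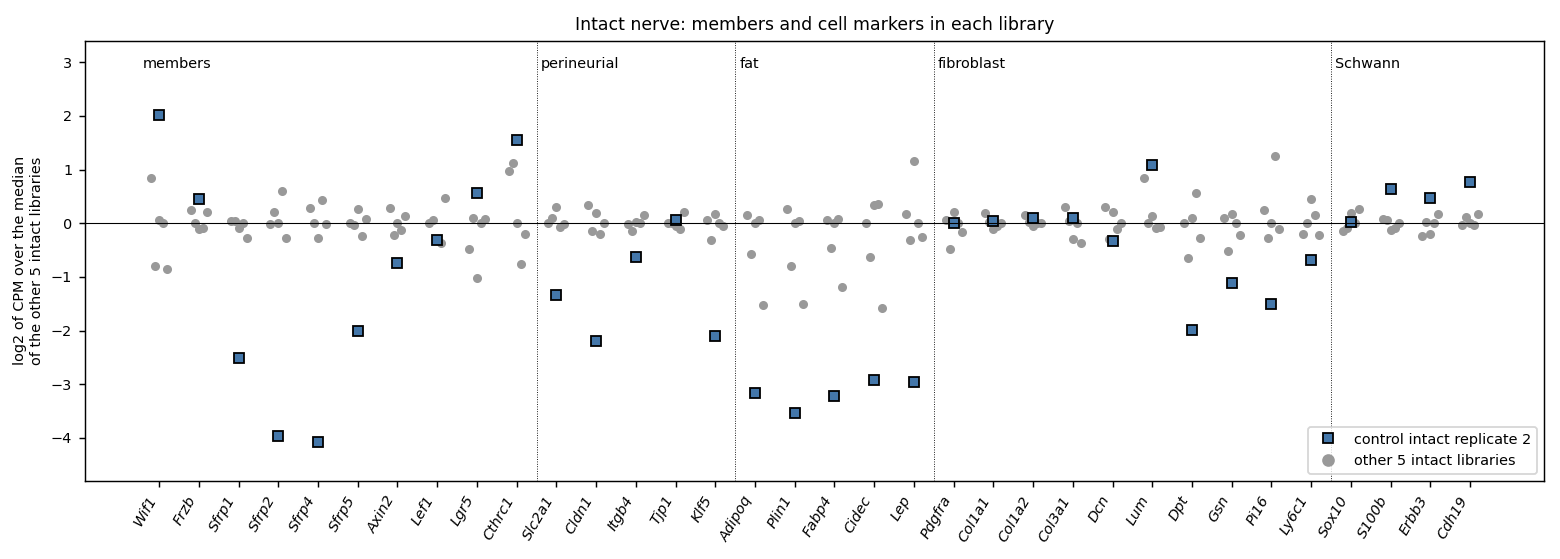
Log2 of the CPM in each intact library over the median of the 5 intact libraries other than control replicate 2 (vertical axis), for the 10 members and for the perineurial, fat, fibroblast and 4 Schwann cell markers (horizontal axis). Blue squares are control replicate 2 and grey points are the other 5 libraries; the squares lie lowest at Sfrp2 and Sfrp4 and are low across the 5 fat markers.

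In injured nerve, Sfrp4 was 116, 291 and 343 CPM in the controls and 251, 278 and 327 CPM in dKO. Sfrp2 was 7.08, 103 and 86.3 CPM in the controls and 52.8, 68.0 and 39.6 CPM in dKO, and Sfrp1 was 18.1, 40.0 and 35.0 CPM and 36.7, 39.6 and 47.3 CPM. For all 3 genes the low control library was replicate 1, the female one, whose summed fibroblast markers were 9279 CPM against 14095 and 14473 CPM in the other injured control libraries. The same library held 9804 CPM of summed red cell markers, against 194 and 569 CPM, and 16.2 CPM of summed lymphocyte markers, against 2.26 and 2.05 CPM. The part of these in the Sfrp levels was not tested. Because a library stood apart on each side, the injury changes of these genes in control were poorly fixed, at -0.02 (SE 0.55) for Sfrp1, 1.58 (SE 1.03) for Sfrp2 and 0.51 (SE 0.84) for Sfrp4. With both libraries left out they were -0.21, 1.57 and 0.30. In dKO nerve, where no library stood apart, the changes were 0.08 (SE 0.55), 0.70 (SE 1.01) and 0.23 (SE 0.84), with the spread estimated over all groups.

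Sfrp5 was the most abundant member. Per kilobase of exon its level was 398 ± 229 CPM in intact control, 554 ± 95.6 CPM in intact dKO, 353 ± 10.03 CPM in injured control and 528 ± 85.7 CPM in injured dKO nerve (SD, n = 3). On the same scale Frzb came next in intact nerve, at 83.8 ± 13.1 CPM in the controls and 71.1 ± 9.11 CPM in dKO (SD, n = 3), and Sfrp4 ranged from 42.0 to 68.3 CPM over the 4 group means. In injured dKO nerve Frzb was at 21.0 ± 4.94 CPM per kilobase (SD, n = 3), below the mean of Sfrp4, Cthrc1 and Sfrp2. At 5 days Sfrp5 was 689, 651 and 670 CPM in the controls and 834, 1015 and 1159 CPM in dKO. The groups did not overlap, but the difference was not called (log2 0.58, SE 0.42, edgeR adjusted p = 0.406). The spread of the gene came largely from replicate 2 of intact control nerve. Without that library Sfrp5 was called (0.62, edgeR adjusted p = 0.00747), as it was when only the injured groups were fitted (0.61, edgeR adjusted p = 0.0171). It was not called with the set term (0.58, edgeR adjusted p = 0.831). Summed counts of 10 fibroblast markers also lay apart at 5 days, at 9279 to 14473 CPM in the controls and 16498 to 18502 CPM in dKO. Taken singly, 1 of the 10 was called higher (3.12% of all gene models). The libraries of 4 did not overlap, against 30.5% of all gene models. The part of fibroblasts in the Sfrp5 levels was not tested. Sfrp5 changed little with injury in the fit, by -0.17 (SE 0.41) in control and -0.07 (SE 0.41) in dKO, and by -0.64 in control without replicate 2.

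The 3 genes known as Wnt targets were all lower in injured than in intact nerve. Axin2, the feedback scaffold, was 36.8, 18.1 and 26.1 CPM in intact control and 30.3, 27.7 and 33.5 CPM in intact dKO nerve. At 5 days it was 12.1, 11.04 and 12.9 CPM in the controls and 10.8, 13.8 and 18.3 CPM in dKO. Intact and injured libraries did not overlap within either genotype, and the log2 changes were -1.17 (SE 0.23) in control and -1.10 (SE 0.23) in dKO. Lef1 was at 7.10 to 12.7 CPM in intact libraries and 2.42 to 6.10 CPM in injured ones, with changes of -1.42 (SE 0.32) and -0.93 (SE 0.31).

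Lgr5, the R-spondin receptor, fell furthest of the 3. It was 13.3, 27.3 and 19.6 CPM in intact control and 9.07, 18.4 and 19.6 CPM in intact dKO nerve. In injured nerve it was 0.845, 1.26 and 2.51 CPM in the controls and 3.75, 4.14 and 2.83 CPM in dKO, from 27 to 149 counts per library. The log2 changes with injury were -3.73 (SE 0.42) in control and -2.12 (SE 0.39) in dKO. All 3 injured dKO libraries lay above all 3 injured controls. The 5-day difference was 1.25 (SE 0.41, edgeR adjusted p = 0.0678) and the difference of injury changes 1.60 (SE 0.55, edgeR adjusted p = 0.159), neither past the threshold of 0.05. DESeq2 called both (1.26, adjusted p = 0.0132, and 1.64, adjusted p = 0.0482). So did edgeR without replicate 4 of injured control nerve, the control library of the second set (1.76, adjusted p = 0.0132, and 2.12, adjusted p = 0.0358). With the set term neither was called (0.52, edgeR adjusted p = 0.785, and 0.88, edgeR adjusted p = 0.75), and within the second set the log2 difference at 5 days was 0.51. At 5 days Axin2 (0.25, edgeR adjusted p = 0.523) and Lef1 (0.56, edgeR adjusted p = 0.278) overlapped between genotypes.

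Cthrc1 was 3.51, 5.29 and 3.93 CPM in intact control and 1.80, 1.07 and 1.56 CPM in intact dKO nerve, with no overlap. In injured nerve it was 72.7, 74.9 and 62.3 CPM in the controls and 74.2, 89.9 and 81.1 CPM in dKO, and there the genotypes overlapped. The intact difference that chose it was -1.53 (SE 0.20), and the next gene models by p in that comparison were Gm20474 (1.23) and Shh, the sonic hedgehog ligand (-1.47). Shh was 7.06, 12.5 and 8.47 CPM in intact control and 2.91, 2.81 and 4.38 CPM in intact dKO nerve. The injury change of Cthrc1 was 4.05 (SE 0.18) in control and 5.80 (SE 0.21) in dKO. At 5 days the log2 difference between genotypes was 0.22 (SE 0.16, edgeR adjusted p = 0.383). The gap between the 2 injury changes thus lies mostly in the intact difference that chose Cthrc1. Replicate 2 of intact control nerve was the highest of the 6 intact libraries for Cthrc1, and without it and the female library the intact difference was -1.35. Over the 4 groups, both intact groups came first in the order of rising level, dKO below control without overlap, and both injured groups, which did not differ beyond their spread, came last.

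**Figure D3:**
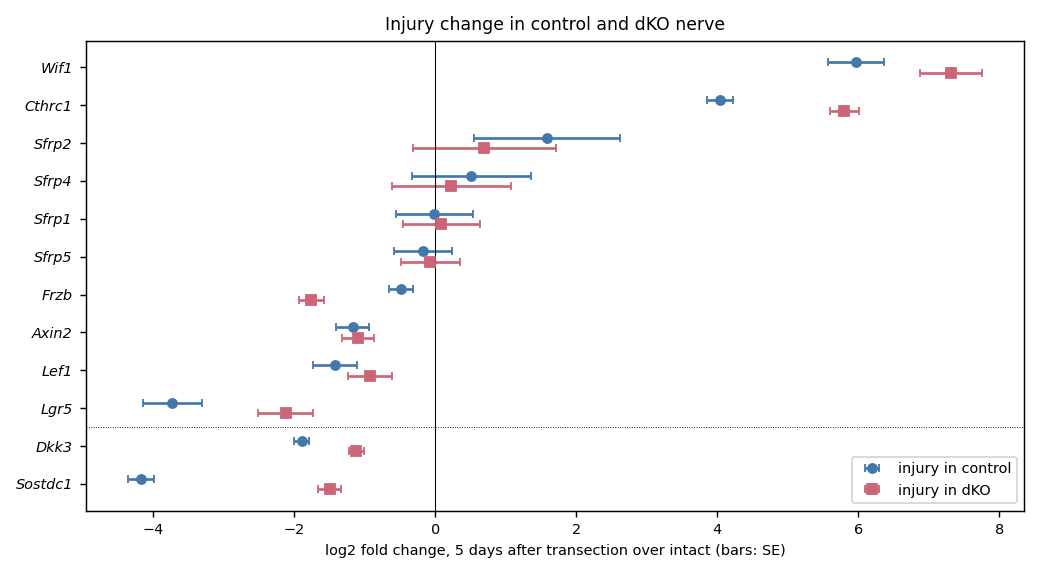
Log2 fold change of injured over intact nerve (horizontal axis) in control (blue circles) and dKO nerve (red squares) for the 10 members. Below the dotted line are Dkk3 and Sostdc1 from the list of other inhibitors. Bars are 1 SE from the fit of all 12 libraries. Wif1 and Cthrc1 were chosen by values that enter the gap between their 2 points. For both genes that gap lies mostly in the intact levels, and it was not tested. The 2 genotypes lie furthest apart for Sostdc1 (-4.17 and -1.50), Cthrc1 (4.05 and 5.80), Lgr5 (-3.73 and -2.12), Wif1 (5.97 and 7.32) and Frzb (-0.49 and -1.76), followed by Sfrp2 (1.58 and 0.70) and Dkk3 (-1.90 and -1.12), and nearly coincide for Axin2, Sfrp1 and Sfrp5.

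In the injury comparison in control nerve, 2 of the 10 members were called higher and 4 lower, and 46.8% of all gene models were called (24.4% higher and 22.4% lower). In dKO nerve the counts were again 2 higher and 4 lower, with 44.7% of all gene models called (22% higher and 22.6% lower). The same 6 genes had libraries that did not overlap between conditions in both genotypes, against 53.3% of all gene models in control and 61% in dKO. In intact nerve 1 member, Cthrc1, was called between genotypes, which is 0.00447% of all gene models, and the 3 libraries of each group did not overlap for 14.6%. These comparisons chose the members, so nothing is read from the counts. At 5 days Wif1 was left untested because of how it was chosen, and 1 of the 9 other members, Frzb, was called lower and none higher, where 8.97% of all gene models were called lower, 3.12% higher and 12.1% in either direction. Besides Frzb, Sfrp5 and Lgr5 did not overlap between genotypes, against 30.5% of all gene models. For the difference of injury changes, where Cthrc1 was left untested too, 1 of 8 members was called lower, against 2.17% of all gene models (0.737% higher and 2.9% in either direction). Both genotype comparisons share libraries with the injury comparisons, and their values are not independent of each other.

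The rest of the pathway was read from 95 genes in 8 lists by role, of which 90 passed the filter. With injury in control nerve, 16 of the 90 rose and 33 fell (median log2 change 0.01, against 0.09 over all gene models). In dKO nerve 15 rose and 32 fell (median -0.14, against 0.05). Scaled by the upper quartile instead, the dKO counts were 17 up and 27 down, and over all gene models 6246 up and 4044 down in place of 4930 and 5067. That scaling moved the median of all gene models by 0.14 there.

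Among the ligands, 5 of 18 rose and 1 fell in control nerve, where 24.4% of all gene models rose and 22.4% fell. Wnt7b rose by 3.25 (SE 0.59, edgeR adjusted p = 0.00037) and Wnt6 fell by 1.49 on the log2 scale. In dKO nerve 4 rose and 1 fell, against 22% and 22.6% of all gene models. The share of ligands called higher was thus near the background in both genotypes, and the share called lower was smaller. The median log2 change of the ligands was 1.20 in control and 0.76 in dKO, against 0.09 and 0.05 over all gene models. Several ligands were near the floor, such as Wnt1, with group means from 0.053 to 0.549 CPM. Wnt7a was among those that rose in dKO nerve, from 0 to 0.170 CPM to 0.578 to 1.36 CPM. That change was no longer called with the set term (0.70, edgeR adjusted p = 0.758). Of the R-spondin and Lgr genes, Lgr6 rose from 1.77 to 3.68 CPM in the 6 intact libraries to 29.6 to 39.9 CPM in the 6 injured ones (log2 3.54 in control and 3.79 in dKO). It thus moved opposite to its relative Lgr5. Rspo1, a ligand of these receptors, fell by 1.59 in control and by 1.93 in dKO on the log2 scale. The list of genes that act on the signal inside the cell holds genes that pass it on and genes that restrain it. None of these was called higher. In control 9 of 18 were called lower and in dKO 11 of 18, where 22.4% and 22.6% of all gene models were called lower. Dvl3 (-1.23 and -1.13) and Ctnnbip1, an inhibitor of beta-catenin (-1.41 and -0.81), were among them.

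Of the 9 other inhibitors, 5 were called lower and 1 higher in control nerve, and 4 lower and 1 higher in dKO, beside the same background shares. Of other genes named as Wnt targets, 4 of 8 rose and 3 fell in each genotype. Of all gene models, 24.4% rose and 22.4% fell in control, and 22% and 22.6% in dKO. Ccnd1, which drives cell division in many settings, rose by 2.47 in control and 1.92 in dKO nerve, and Cd44, an adhesion receptor, by 2.64 and 2.40. Both rose while Axin2, Lef1 and Lgr5 were lower. The 3 that fell, Nkd1, Ccn4 and Tnfrsf19, went the same way as these members. Nkd1 was 60.6 to 83.5 CPM in intact libraries and 17.1 to 38.6 CPM in injured ones. Macrophage markers, which entered all comparisons beside these, rose with injury in 6 of 6 in both genotypes, and the part of cell makeup in the Wnt changes was not tested.

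In intact nerve edgeR called none of the 90 genes between genotypes. Of the 90, 9 had an unadjusted edgeR p under 0.05, against 1299 of all 22384 gene models, which is a smaller share. DESeq2 and limma-voom called 0 as well. In replicate 2 of intact control nerve, 43 of the 90 were below all other intact libraries, among them 11 of 16 receptors and 10 of 18 ligands, and 16 were above. Of all 22384 gene models tested, 6344 (28.3%) were below there and 6229 above.

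At 5 days 9 of the 90 were higher and 10 lower in dKO nerve (median log2 difference 0.21, against -0.02 over all gene models, of which 699 were higher and 2008 lower). With upper-quartile scaling, which moved the median of all gene models by 0.11, it was 9 higher and 6 lower, and 1075 and 1345 of all. Sostdc1, an inhibitor that binds Lrp6 and also blocks BMP ligands, differed most. It was 14.7, 10.8 and 10.1 CPM in injured control nerve and 65.7, 79.8 and 67.2 CPM in injured dKO nerve (log2 2.57, SE 0.17, edgeR adjusted p = 5.2e-07), higher in 3 of 3 dKO libraries. In intact nerve it was 178 to 263 CPM in both genotypes. The injured stump of dKO mice thus held less Frzb and more Sostdc1 than that of controls. Fzd3, a Wnt receptor, was 13.4, 16.0 and 15.9 CPM in the controls and 6.86, 7.501 and 8.32 CPM in dKO (log2 -1.0, SE 0.17, edgeR adjusted p = 0.00138). Ccnd1 was 901, 848 and 732 CPM in the controls and 486, 518 and 537 CPM in dKO (log2 -0.69, SE 0.12, edgeR adjusted p = 0.00153).

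**Figure D4:**
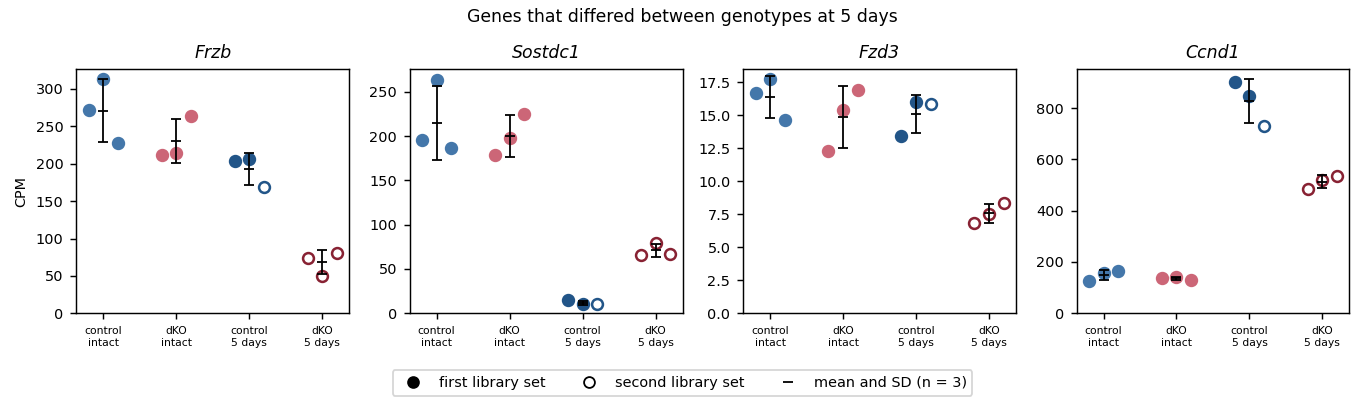
CPM of Frzb, Sostdc1, Fzd3 and Ccnd1 in each library by group (axes start at 0), with filled points for the first library set, open points for the second, and the mean with its SD (n = 3) in black. In injured nerve the dKO points lie apart from the control points for all 4 genes, and the 1 open control point lies with the other controls or, for Frzb and Ccnd1, a little below them.

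Besides Sostdc1, Fzd3 and Ccnd1, the genes called at 5 days were mostly changed by less than 1 on the log2 scale. Higher in dKO were Wnt6 (0.75), Dkk3 (0.42), Trabd2b (0.56), Prickle1 (0.70), Ror2 (0.63), Fzd6 (0.74), Adgra2 (0.43) and Ctnnbip1 (0.61). Lower were Wnt7b (-1.85), Fzd5 (-1.30), Tcf7 (-0.87), Cd44 (-0.74), Celsr2 (-0.64), Vangl1 (-0.51), Gsk3b (-0.40) and Gsk3a (-0.38). Of these 19 genes, chosen by their calls in the same libraries, 18 did not overlap between genotypes, and Wnt7b did. Of all gene models 30.5% did not overlap. Sostdc1, Fzd3, Ccnd1, Celsr2 and Ctnnbip1 stayed called whichever library was left out, and the other 14 lost the call on leaving out at least 1. With the set term, Sostdc1 (2.81, edgeR adjusted p = 0.000149) and Fzd3 (-1.07, edgeR adjusted p = 0.0247) stayed called and 17 did not. All 17 kept their sign with the set term, at adjusted p from 0.0525 to 0.681 in edgeR, and 14 stayed within 1.5 times their size. Gsk3a (-0.21), Tcf7 (-0.57) and Vangl1 (-0.26) shrank further. The second set holds 1 control library, on which this fit rests.

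For the difference of injury changes, 2 of the 90 genes were called, both from the list of other inhibitors and with a smaller fall in dKO nerve. Sostdc1 fell by 4.17 in control and by 1.498 in dKO on the log2 scale, a difference of 2.67 (SE 0.23, edgeR adjusted p = 2.1e-05). Dkk3, a divergent member of the Dickkopf family, was 162 to 183 CPM in intact control, 127 to 144 CPM in intact dKO, 41.1 to 49.4 CPM in injured control and 60.2 to 66.5 CPM in injured dKO nerve. It fell by 1.90 and by 1.12 on the log2 scale, a difference of 0.78 (SE 0.14, edgeR adjusted p = 0.00758). The 5-day difference between genotypes was 0.42, and the rest of the 0.78 lay in the lower intact dKO levels. With the set term Sostdc1 was still called (2.91, edgeR adjusted p = 0.000657) and Dkk3 was not (0.70, edgeR adjusted p = 0.107).

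The genes whose levels ran most like those of Wif1 and Cthrc1 were found by the Pearson correlation of log2 CPM over the 12 libraries among 13239 named gene models. These values describe a pattern that mostly separates intact from injured libraries, which share condition and depth. For Wif1 they were Mdk (0.994), Trem2, Cd48, Ccr2 and Ly86 (0.993), and 362 gene models had a correlation over 0.95. For Cthrc1 the first was Shh (0.994), then Fat3 (0.985), Bcl2a1b (0.985), Gpx7 (0.984) and Agbl2 (0.983), with 196 over 0.95. Mean levels of Shh were 9.34 CPM in intact control, 3.36 CPM in intact dKO, 311 CPM in injured control and 246 CPM in injured dKO nerve.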

How the data were processed

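The 12 libraries (4 groups of 3) hold bulk polyA RNA of sciatic nerve, prepared with an Ion Torrent kit per the labels' protocols. Per the submitters' processing notes, reads were placed on mm10 and DESeq2 was run in R 4.2.1. Aligner, counter, strand and gene annotation: not given in the sources used here. Whole-number counts per gene model make up the raw table as deposited. The deposited normalized table holds a signal, which the authors made by dividing the counts by a size factor per library (the ratio was constant within a library to 0.456%), and it was used as an alternative only.

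Tests on these counts used edgeR 4.0.16 (R 4.3.3): filterByExpr (minimum count 10), TMM, a mean per group over all 12 libraries, robust quasi-likelihood F-tests, and Benjamini-Hochberg adjustment over 22384 gene models with a threshold of 0.05. Adjusted p-values come from edgeR where no other tool is named. SE is the log2 change divided by the square root of F. Promoters came from RefSeq GRCm38.p6, positions from GENCODE M21. The script was tested on simulated data. The labels do not say that replicates are separate animals, so p-values measure only the spread between these libraries. No pairing was used, since the labels name no animals. Shared animals between conditions were not excluded, except by sex for replicate 1 of injured control nerve.

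The members and gene lists were chosen with earlier results of these data known. The Schwann cell list is given in part: 2 of its markers are not reported here, so its counts and sums cover the other 4. Named genes were all members, the called pathway genes (for injury at most 2 per list and genotype, by p), and the 5 most like Wif1 and Cthrc1. The 3 other Wnt targets that fell with injury were named as well. Alternatives were DESeq2 1.42.0, limma-voom and limma-trend (limma 3.58.1), DESeq2 and upper-quartile scaling, no filter or a stricter one (1 CPM or more in 3 libraries, mean count 10), only the compared groups, a threshold of 0.01, sex, the library set, a replicate block and each library left out. Upper-quartile scaling and leaving out both odd control libraries were chosen after seeing the data.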

Additional observations from a re-analysis of the deposited data

Results flagged for a closer look

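The injury changes of 3 genes differed between genotypes by a test of the difference itself (the interaction of injury and genotype in edgeR). For Frzb the change in dKO minus that in control was -1.27 on the log2 scale (-1.76 against -0.49). For Sostdc1 it was 2.67 (-1.50 against -4.17), and for Dkk3 it was 0.78 (-1.12 against -1.90). Each was lower or higher at 5 days in 3 of 3 dKO libraries than in any control library. With a term for the library set, Sostdc1 alone of the 3 was still called.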

How the results depend on the processing

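Frzb stayed called lower at 5 days under every alternative run, at -1.65 to -1.32 with a library left out and -1.55 to -1.31 otherwise. Members called at 5 days numbered 1, or 2 under DESeq2, limma-trend, the compared groups alone, and both odd libraries left out (1 to 2 with a library left out, 2 without intact control 2 or control 4 at 5 days). For the difference of injury changes, 1 became 2 under DESeq2 and 0 with a threshold of 0.01 or the set term (1 to 2 with a library left out). The 19 other Wnt genes called at 5 days became 5 at a threshold of 0.01, 9 with sex, 2 with the set term and 8 to 25 with a library left out: 9 and 11 without control 1 and 2 at 5 days, 8 without dKO 2 at 5 days. The 2 for the difference became 8 under DESeq2, 4 with the stricter filter, 1 with the set term, 4 with upper-quartile scaling, 5 without both odd libraries and 2 to 7 with a library left out (7 without control 4 at 5 days, 4 without intact control 2). The 47 in injured dKO nerve became 27 with the set term.

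With the replicate block, 8 other Wnt genes were called at 5 days. Correlations of deviations between libraries of the same number ran from -0.21 to 0.12, with 1 of 13 over 0.1. Most of these pairs cross genotypes. The highest values were of intact with injured dKO nerve, for replicate 2 (0.12) and replicate 3 (0.10). Libraries of different numbers were not compared, so these values cannot decide whether samples are paired. The block gave differences of injury changes of -0.0652 for Sfrp1 and -0.0778 for Sfrp5.

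Signs turned for genes that passed no threshold where they turned. At 5 days Sfrp2 was 0.47 with limma-voom, 0.41 with limma-trend and -0.82 to 0.20 with a library left out. Sfrp4 was -0.15 with sex, -0.26 with the set term, -0.16 without both odd libraries and -0.16 to 0.48 with 1 left out. Lef1 was -0.0031 with the set term. For the difference of injury changes, Sfrp1 was -0.16 with limma-voom, -0.17 with sex, -0.0751 with the set term, -0.17 with limma-trend and -0.20 to 0.59 with a library left out. Sfrp5 was -0.14 with limma-voom, -0.11 with limma-trend and -0.16 to 0.54 with a library left out. Axin2 was -0.0416 with limma-voom, -0.0269 with the set term and -0.17 to 0.31 with a library left out, Sfrp4 was -0.77 to 0.28 with a library left out, and Lef1 was -0.0617 with the set term. The causes were not tested.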
